A study of Mus musculus with 12 samples.

Results

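The Hox genes are the 39 protein-coding genes of the GENCODE M21 annotation (mouse build mm10) whose symbols are Hoxa, Hoxb, Hoxc or Hoxd followed by a number, out of 21938 protein-coding genes in all. They lie in 4 clusters of 11 (HoxA), 10 (HoxB), 9 (HoxC) and 9 (HoxD) genes. Binding was mapped by CUT&RUN, in which an antibody brings a nuclease to chromatin and the fragments it cuts free are sequenced. C2C12, an established myoblast line first grown from mouse thigh muscle, was profiled as day 0 cells, after 1 day of differentiation, and on day 5 as myotubes and as reserve cells, the cells that stay single and unfused. All cells are of this 1 line. Differentiation after day 0 was with 2% horse serum. Both day 5 fractions were parted by mild trypsin treatment, so each fraction may hold cells of the other. Each state had 1 library for H3K4me3, 1 for MBD2 and 1 for a control IgG. The 4 IgG libraries were not analysed here. With 1 library per group no difference has a replicate check, so values are given with no p-value.

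Hox genes encode homeodomain transcription factors that set position along the body axis and the limb. Within a cluster their order on the chromosome follows the order of their use from head to tail, and genes of the same number in different clusters, the paralogue groups, descend from 1 ancestral gene. Trithorax complexes deposit H3K4me3 at genes in use, while Polycomb complexes hold unused Hox genes silent, and cells from adult tissues often keep the set of Hox genes of their place in the body. MBD2 binds methylated CpG and is a subunit of the NuRD chromatin remodelling complex.

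Sequences from the RefSeq promoter table (build GRCm38.p6) are shown for sets of paralogues that share a number and differ in the mark. Each runs 5′ to 3′ on the gene's strand over the 250 bases before a RefSeq start, with each CG dinucleotide, the target of DNA methylation, in capitals. Paralogues of group 4 with a sequence in that table are Hoxb4 (chr11:96318017-96318266, plus strand, 14 CG), Hoxc4 (chr15:103034145-103034394, plus strand, 8 CG) and Hoxd4 (chr2:74721728-74721977, plus strand, 3 CG). Hoxa4, also of this group, has none there. Hoxb4 had H3K4me3 in 3 of the 4 libraries, Hoxc4 in all 4 and Hoxd4 in none.
Hoxb4: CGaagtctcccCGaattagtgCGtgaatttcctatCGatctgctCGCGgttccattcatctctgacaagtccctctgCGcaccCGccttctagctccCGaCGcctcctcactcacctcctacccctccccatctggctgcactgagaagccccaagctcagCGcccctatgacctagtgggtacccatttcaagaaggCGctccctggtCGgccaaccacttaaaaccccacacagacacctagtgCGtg
Hoxc4: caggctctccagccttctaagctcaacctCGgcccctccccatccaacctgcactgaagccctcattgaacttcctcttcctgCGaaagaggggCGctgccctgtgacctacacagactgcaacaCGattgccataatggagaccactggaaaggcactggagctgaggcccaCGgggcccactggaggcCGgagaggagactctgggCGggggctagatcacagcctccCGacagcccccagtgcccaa
Hoxd4: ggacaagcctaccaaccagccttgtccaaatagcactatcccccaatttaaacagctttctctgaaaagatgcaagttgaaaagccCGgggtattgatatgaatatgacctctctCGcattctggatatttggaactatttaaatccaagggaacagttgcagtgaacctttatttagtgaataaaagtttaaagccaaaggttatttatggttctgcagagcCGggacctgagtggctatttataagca

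Paralogues of group 9 with a sequence in that table are Hoxa9 (chr6:52227371-52227620, minus strand, 3 CG) and Hoxd9 (chr2:74697513-74697762, plus strand, 13 CG). Hoxb9 and Hoxc9, also of this group, have none there. Hoxa9 lay inside a broad H3K4me3 domain in all 4 libraries, and Hoxd9 had 1 narrow peak in myotubes.
Hoxa9: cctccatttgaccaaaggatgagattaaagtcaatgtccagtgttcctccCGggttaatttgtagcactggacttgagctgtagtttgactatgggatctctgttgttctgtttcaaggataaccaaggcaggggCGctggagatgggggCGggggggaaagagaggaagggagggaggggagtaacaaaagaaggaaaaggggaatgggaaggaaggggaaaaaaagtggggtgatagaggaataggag
Hoxd9: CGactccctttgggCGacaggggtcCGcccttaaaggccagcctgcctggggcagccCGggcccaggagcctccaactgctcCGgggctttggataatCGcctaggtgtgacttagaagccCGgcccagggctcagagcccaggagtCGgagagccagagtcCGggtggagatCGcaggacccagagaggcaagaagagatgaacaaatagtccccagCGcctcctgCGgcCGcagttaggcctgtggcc

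The downstream start of Hoxa10 (chr6:52234940-52235189, minus strand, 20 CG) is shown because it carried MBD2 and H3K4me3 at day 0.
Hoxa10: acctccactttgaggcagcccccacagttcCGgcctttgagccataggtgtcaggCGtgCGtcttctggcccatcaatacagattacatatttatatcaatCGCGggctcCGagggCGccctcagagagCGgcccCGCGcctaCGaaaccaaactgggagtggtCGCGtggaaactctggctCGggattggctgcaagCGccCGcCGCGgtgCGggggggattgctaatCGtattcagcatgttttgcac

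The promoter table held 24 sequences for 22 of the 39 genes. Their median was 12.5 CG in 250 bases, against 6 over all 32851 promoters of the table, whose quartiles were 2 and 16. The median was 15.5 over 10 HoxA sequences and 12.5 over 10 HoxD sequences, although HoxA carried H3K4me3 widely and HoxD almost nowhere. Hoxa9 and Hoxa7, with 3 and 7 CG, sat in DNA that was fully covered at day 0, whereas Hoxd13, with 31 CG, and Hoxd1, with 24, had no covered base within 5 kb. Hoxa13 had the most, 35 CG, and Hoxd11 the fewest, 2 CG at the more upstream of its starts. An E-box (CANNTG, which reads the same on both strands), the motif that MyoD and myogenin bind, was in 17 of the 24 Hox sequences and in 66.2% of all promoters. The letters TGATNNAT on either strand, a common form of the joint PBX and Hox motif, were in 4 of 24 (Hoxd11, Hoxa2, Hoxb8 and Hoxb1) and in 7.68% of all promoters. A match is a description of these letters and not a bound site.

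**Figure D1:**
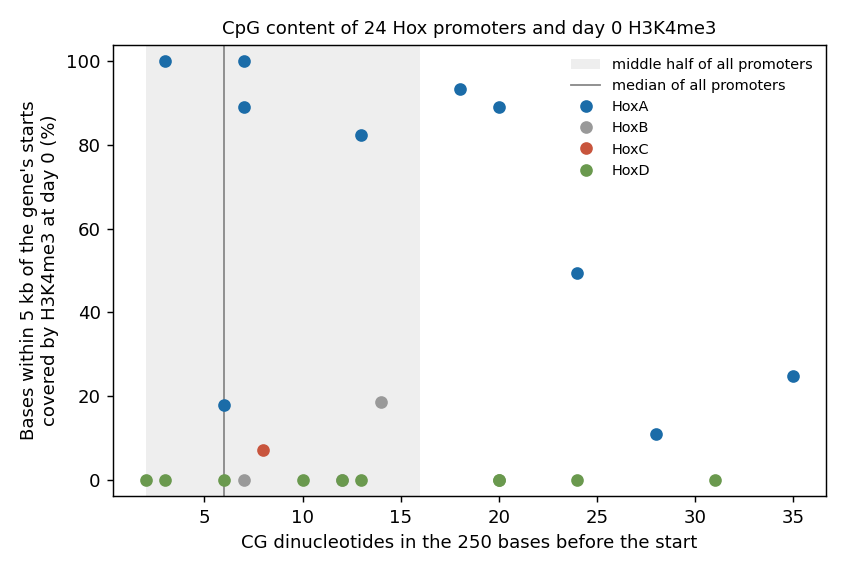
Number of CpG dinucleotides in the 250 bases before the start (x axis) against the percentage of bases within 5 kb of the gene's starts covered by H3K4me3 peaks at day 0 (y axis), 1 point per promoter sequence, coloured by cluster. The grey band spans the quartiles of all promoters, 2 and 16. HoxA and HoxD points span similar ranges of CpG number and differ in height, and all 10 HoxD points lie at 0%.

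H3K4me3 separated the clusters into a marked pair, HoxA and HoxC, and a nearly unmarked pair, HoxB and HoxD. A gene was counted as marked when a peak reached to within 1 kb of any of its annotated transcript starts. By this measure 17, 16, 19 and 15 of the 39 Hox genes were marked in day 0 cells, day 1 cells, myotubes and reserve cells, while 56.5%, 56.2%, 57.3% and 54.8% of all protein-coding genes were. Of the 20 genes of HoxA and HoxC, 15, 15, 16 and 15 were marked in the same order. Of the 19 genes of HoxB and HoxD, 2, 1, 3 and 0 were. Across libraries, 15 Hox genes were marked in all 4, 19 in none, and 5 in 1 to 3 of them (Hoxb4, Hoxb5, Hoxb13, Hoxc8 and Hoxd9). Over all protein-coding genes 53.6% were marked in all 4 libraries and 5.67% in 1 to 3. A mark in part of the cells and a weaker mark in all of them cannot be told apart in these libraries.

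The libraries differed in ways that touch these counts. The H3K4me3 lists held 19218, 17665, 26034 and 15920 peaks covering 41.0, 36.1, 43.7 and 29.8 Mb, so that the list of reserve cells was the shortest. The MBD2 lists held 14948, 452, 288 and 111 peaks. The depth of the libraries is unknown. The lowest local background, in fragments per base, was between 1.08 and 1.47 for H3K4me3. For MBD2 it was 0.360, 0.286, 0.776 and 0.947. The day 5 lists, the shortest, had the highest values, but day 1, with 452 peaks, had the lowest. Each value is the lowest over the peaks of a list, so lists of unlike length are not compared on equal terms. H3K4me3 lay at 4 of 4 myoblast marker genes in every library and at 0, 6, 6 and 5 of 6 genes of differentiated muscle (Myh3, embryonic myosin, was unmarked in reserve cells). Of 10 markers of blood, endothelium, liver, neural, glial and epithelial cells, 2, 2, 2 and 0 were marked.

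**Figure D2:**
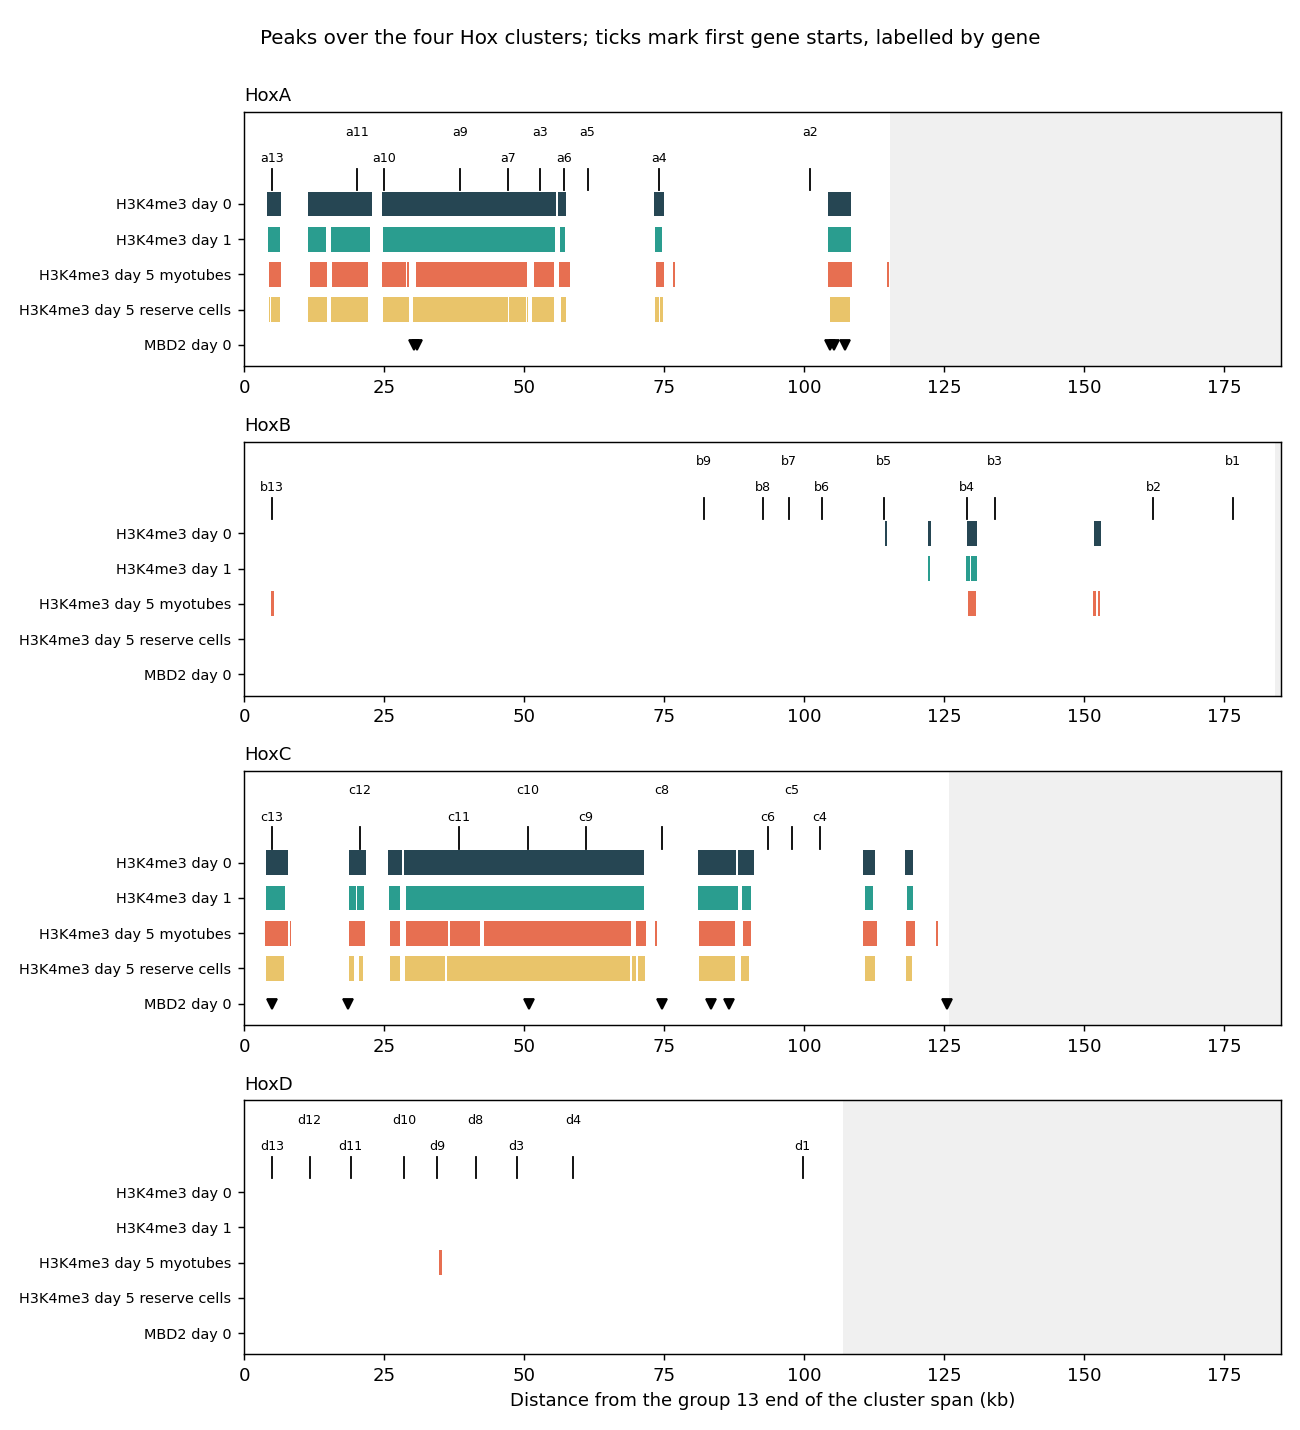
H3K4me3 peaks (bars, 1 row per library) and day 0 MBD2 peaks (triangles at the peak centre) across each cluster from 5 kb before its first gene to 5 kb after its last, by distance in kb from the group 13 end. Ticks mark the first annotated start of 38 genes, and grey areas lie outside the cluster. HoxA and HoxC carry wide blocks in all 4 libraries, HoxB has a few narrow peaks, and HoxD has 1, in myotubes.

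Measured over the whole span, HoxC was covered most. Its span (chr15:102916103-103041852, 125.75 kb) was covered by H3K4me3 peaks over 52.2% (day 0), 48.9% (day 1), 49.7% (myotubes) and 47.1% (reserve cells). The span of HoxA (chr6:52150590-52265880, 115.291 kb) was covered over 45.5%, 42.4%, 41.7% and 39.9%. The span of HoxB (chr11:96189316-96373256, 183.941 kb) was covered over 2.23%, 1.13%, 1.51% and 0%, and that of HoxD (chr2:74663310-74770142, 106.833 kb) over 0.565% in myotubes and 0% in the other 3 libraries. Peaks covered 1.51%, 1.32%, 1.61% and 1.09% of chromosomes 1 to 19, X and Y. HoxB was thus near the level of the chromosomes as a whole in 3 libraries, while HoxA and HoxC were far above it in all 4.

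**Figure D3:**
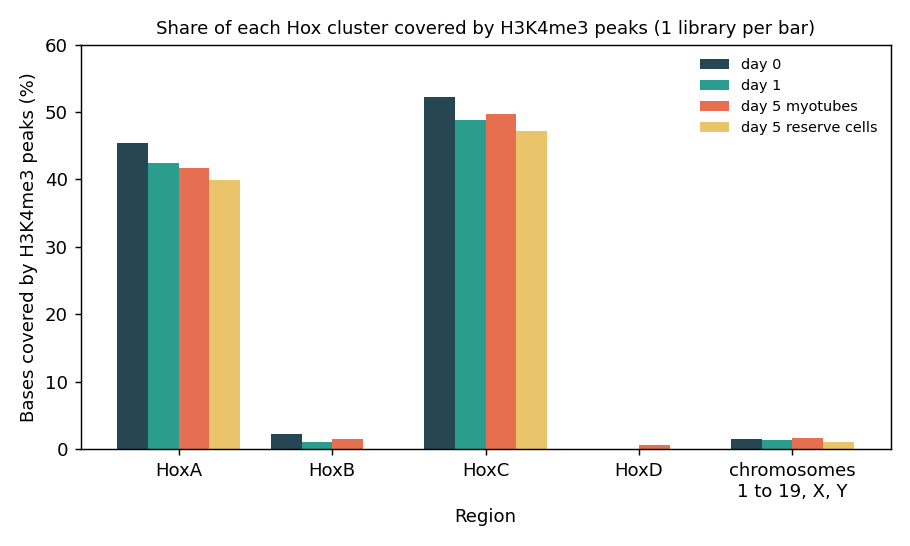
Percentage of bases covered by H3K4me3 peaks (y axis) in each cluster span and in chromosomes 1 to 19, X and Y together, 1 bar per library. The HoxA and HoxC bars stand between 39.9% and 52.2%, and no HoxB, HoxD or chromosome-wide bar passes 2.23%.

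The marked parts of HoxA and HoxC were largely the same bases in every library. Of 54154 bases of HoxA covered in any library, 43074 (79.5%) were covered in all 4, and of 67996 bases of HoxC, 56238 (82.7%) were. Over the chromosomes the share was 49.6%. Covered bases in HoxA came to 48931 (day 1), 48109 (myotubes) and 45990 (reserve cells), which are 93.4%, 91.8% and 87.7% of the 52412 bases at day 0. In HoxC they came to 61458, 62448 and 59266, which are 93.6%, 95.1% and 90.3% of the 65635 bases at day 0. Over the chromosomes the shares of the day 0 coverage were 87.9%, 107% and 72.5%. Myotubes covered 1742 bases of HoxA that day 0 cells did not, and day 0 cells 6045 that myotubes did not. In HoxC these were 2007 and 5194 bases. Day 1 cells covered 0 bases of HoxA outside the day 0 peaks and reserve cells 63.

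The clusters held the widest H3K4me3 domains of the lists. At day 0 the widest of all 19218 peaks lay in HoxC (chr15:102944697-102987533, 42837 bp, fold enrichment 132 over the local background), over the starts of Hoxc11, Hoxc10 and Hoxc9. These genes are best known in the lumbar and thoracic spinal cord and the hindlimb. The next widest was in HoxA (chr6:52210179-52241342, 31164 bp, fold 68.3), over starts of Hoxa3, Hoxa7, Hoxa9 and Hoxa10. Hoxa9 and Hoxa7 are expressed in blood stem cells and their leukaemias, and Hoxa9 has been studied in aged muscle stem cells. At day 1 both domains were again the widest of their list, 42577 and 30592 bp. In myotubes the widest HoxC peak (26199 bp) ranked 2 and the widest HoxA peak (19859 bp) ranked 4 of 26034. In reserve cells they measured 32570 and 16972 bp and ranked 1 and 3 of 15920. Peaks of 10 kb or more numbered 46, 30, 68 and 17 in the 4 lists.

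**Figure D4:**
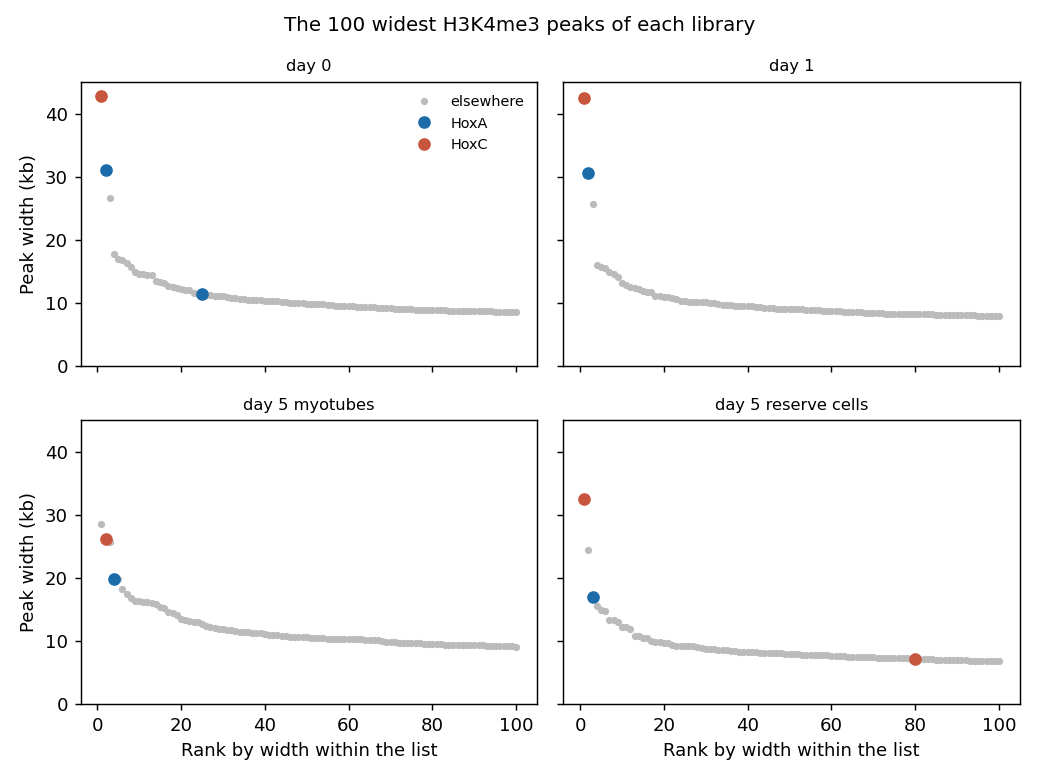
Width in kb (y axis) against rank by width (x axis) for the 100 widest H3K4me3 peaks of each library, with peaks in HoxA and HoxC coloured and all others grey. A HoxC peak holds the first rank at day 0, day 1 and in reserve cells and the rank of 2 in myotubes.

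At day 5 the domains were broken by short gaps. Inside the limits of the day 0 HoxC domain, myotubes had 4 peaks that covered 94.7% of it, with gaps of 447 to 950 bp that summed to 2083 bp. Reserve cells had 4 peaks that covered 97.2%, with gaps of 323 to 407 bp, and day 1 cells 1 peak that covered 99.4%. Inside the day 0 HoxA domain, myotubes had 4 peaks that covered 90.1%, with gaps of 263 to 1218 bp, and reserve cells 5 peaks that covered 92.3%, with gaps of 228 to 616 bp. Day 1 cells had 1 peak that covered 98.2%. So most of the bases of both day 0 domains were covered in every library.

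Around each start, 5 kb either side, the genes inside the domains were covered almost throughout. At least 90% of these bases were covered for 6, 5, 3 and 5 Hox genes, of 21, 13, 27 and 9 protein-coding genes in all (0.0957%, 0.0593%, 0.123% and 0.041%). The 6 at day 0 were Hoxa3, Hoxa7, Hoxa9, Hoxc9, Hoxc10 and Hoxc11. Those at day 1 and in reserve cells were Hoxa7, Hoxa9, Hoxc9, Hoxc10 and Hoxc11, and those in myotubes were Hoxa9, Hoxc9 and Hoxc10. For Hoxa9, Hoxc9 and Hoxc10 every base was covered in all 4 libraries. Hoxa7 was covered over 89.7% in myotubes and Hoxc11 over 88.7%, just under the limit.

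**Figure D5:**
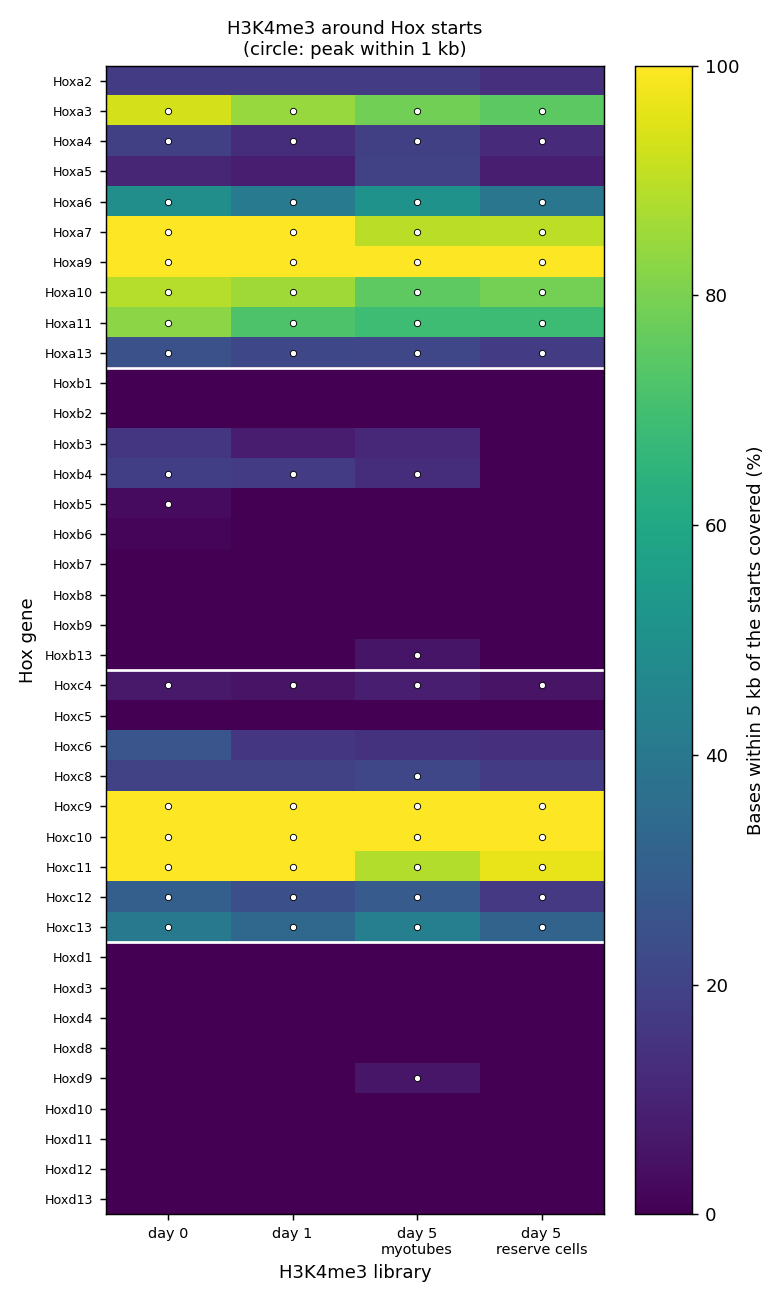
Percentage of bases within 5 kb of the starts covered by H3K4me3 peaks (colour) for 38 Hox genes (rows) in the 4 libraries (columns). Circles mark a peak within 1 kb of a start. The highest values are at Hoxa3, from Hoxa7 to Hoxa11 and from Hoxc9 to Hoxc11, and no row of HoxB or HoxD passes 18.4%.

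In HoxA, 9 of 11 genes were marked in all 4 libraries. Hoxa2, a gene of the neural crest of the face, was unmarked, with the nearest peak 3220, 3250, 3220 and 3596 bp away. Hoxa4, a gene of the neck vertebrae, had narrow peaks of 1879, 1296 and 1520 bp at day 0, day 1 and in myotubes, and a pair of 638 and 587 bp in reserve cells. Hoxa5, needed for lung and rib development, was unmarked, with the nearest peak 3917, 4102, 3057 and 3854 bp away, although its promoter holds 28 CG. Hoxa6, its neighbour, had peaks of 1406, 829, 2005 and 848 bp, widest in myotubes. Hoxa2 and Hoxa5 were thus the 2 unmarked genes of HoxA.

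The posterior part of HoxA was marked more broadly. Within 5 kb of its starts, Hoxa10, a gene of the lumbar axis and the uterus, had 14165, 13616, 11982 and 12615 covered bases. Hoxa11, which shapes the forearm and lower leg, had 8250, 7197, 6908 and 6843. Its peak was 11390 bp wide at day 0, when it ranked 25 by width, and 6945, 6354 and 6579 bp later, with a separate peak of 3089, 3051 and 3277 bp beside it. Hoxa13, a gene of the hand, foot and genital bud, had peaks of 2496, 2171, 2137 and 1591 bp. Hoxa3, which is needed for thymus and parathyroid, counts as marked through its annotated start between Hoxa6 and Hoxa7, 44.1 kb from the end of the gene. Counted at start codons instead, Hoxa3 was unmarked, and the Hox genes marked came to 16, 15, 17 and 14.

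In HoxC, 6 of 9 genes were marked in all 4 libraries. Hoxc13, a gene of hair and nails, had peaks of 4025, 3372, 4062 and 3190 bp. Hoxc12 had peaks of 3033 bp at day 0 and 2874 bp in myotubes, and a pair of 1211 and 1216 bp at day 1. In reserve cells it had 1 of 831 bp, with another of 816 bp just beyond the 1 kb limit. Hoxc4, at the anterior end, had peaks of 1398, 1041, 1656 and 1093 bp at its downstream start. Between the domain and Hoxc4 lay Hoxc8, Hoxc6 and Hoxc5. Hoxc5 had no covered base within 5 kb in any library. Hoxc6 had 2626, 1566, 1464 and 1383, with the nearest peak 2375, 3033, 3025 and 3342 bp from its start.

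A strong HoxC peak lay away from the basic set of starts. It measured 6718, 7048, 6409 and 6492 bp (chr15:102997116-103003833 at day 0) and its day 0 pileup of 382 fragments passed the 348 of the widest domain. The start of the gene record of Hoxc6, 102998257, lies inside it and belongs to a transcript of the comprehensive annotation. With all transcripts of that annotation, Hoxc5 and Hoxc6 were marked in all 4 libraries and Hoxb3 at day 0 and in myotubes, and the counts came to 20, 18, 22 and 17. Whether Hoxc6 counts as marked thus depends on which of its starts is taken.

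HoxB carried few and weak H3K4me3 peaks. Hoxb4, known for the expansion of blood stem cells, had a peak of 1845 bp at day 0 with a fold of 8.09 and a pileup of 19 fragments. At day 1 it had a pair of 731 and 1014 bp (folds 5.47 and 4.79), in myotubes 1 of 1298 bp (fold 4.95), and in reserve cells none, the nearest peak being 193453 bp away. Hoxb5 had a single peak of 297 bp at day 0 (fold 3.13, pileup 11), 190 bp from its start. That peak is also within 5 kb of a start of Hoxb6. Hoxb3 had none within 1 kb, but 3140, 1569, 2193 and 0 bases within 5 kb of its starts, in part (at day 1 all) from the Hoxb4 peaks. Hoxb1, Hoxb2, Hoxb7, Hoxb8 and Hoxb9 had 0 in every library. The median fold was 9.55 over all peaks of myotubes and 29.0 over those of day 0, so these peaks were low in their own lists.

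HoxD, whose posterior genes build the limb, had no peak across its span at day 0, at day 1 or in reserve cells. Around Hoxd1 the nearest peak was 62370, 62276, 62370 and 62345 bp away, outside the cluster. In myotubes a peak of 604 bp (chr2:74698040-74698643, fold 4.50, pileup 9) lay 313 bp downstream of the start of Hoxd9. The other 8 HoxD genes, Hoxd13 with its 31 CG among them, were unmarked in all 4 libraries.

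By paralogue group, 3 of 4 genes of group 4 (Hoxa4, Hoxb4 and Hoxc4) were marked in 3 libraries, and Hoxa4 and Hoxc4 in reserve cells. In groups 10 and 11 the HoxA and HoxC members were marked and the HoxD member was not, 2 of 3 genes in every library. In group 12, Hoxc12 was marked and Hoxd12 was not. In group 13, Hoxa13 and Hoxc13 were marked in all 4 libraries, Hoxb13 in myotubes, and Hoxd13 in none. No gene of group 2, Hoxa2 or Hoxb2, was marked in any library. Group 8 had 1 call, Hoxc8 in myotubes. The 5 genes marked in 1 to 3 libraries belonged to groups 4, 5, 8, 9 and 13.

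Between states, 1 to 4 of the 39 Hox genes differed in their H3K4me3 call at a start. Set against day 0, day 1 cells gained 0 and lost 1 (Hoxb5), where 0.748% and 1.05% of protein-coding genes gained and lost. Myotubes gained 3 over day 0 (Hoxd9, Hoxb13 and Hoxc8) and lost 1 (Hoxb5), with 2.32% and 1.56% of all genes doing so. Reserve cells gained 0 and lost 2 (Hoxb5 and Hoxb4), with 0.602% and 2.33% of all genes. Set against reserve cells, myotubes had 4 more (Hoxd9, Hoxb13, Hoxb4 and Hoxc8) and lacked 0, with 3.2% and 0.725% of all genes. With the summit of the peak required within 1 kb of a start, the direction of both reserve cell comparisons turned. Reserve cells then gained 6 calls over day 0 (Hoxa7, Hoxa9, Hoxa10, Hoxa11, Hoxc11 and Hoxc12) and lost 1 (Hoxb5). Myotubes had 3 that reserve cells lacked (Hoxb13, Hoxc10 and Hoxd9) and lacked 5 (Hoxa7, Hoxa9, Hoxa10, Hoxc11 and Hoxc12). The 6 genes had a start inside an H3K4me3 peak in all 4 libraries. Their summit calls thus tell where summits lie and not whether the mark is present. In these lists a peak has 1 summit however wide it is, so a domain called as several peaks has more summits.

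The gained peaks were narrow. Hoxb13, a gene of the tail and the prostate, gained a peak of 580 bp in myotubes (chr11:96194019-96194598, fold 4.82, pileup 14) over its start, and the nearest day 0 peak was 69248 bp away. Hoxc8, a gene of the thoracic axis, gained 1 of 275 bp (fold 3.15, pileup 6) with its edge 850 bp from the start, and the nearest day 0 peak was 3074 bp away. The Hoxd9 peak is the 604-bp one above. Myotubes had the longest list with the lowest median fold, and the part of that in these gains was not tested. With the same number of peaks kept in each H3K4me3 list, 15920, the 3 gains and the HoxB calls of myotubes were gone, and the 15 genes of HoxA and HoxC marked in all 4 libraries were the same.

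Among Hox genes covered at both times, fewer bases were covered within 5 kb at day 1 than at day 0 for 15 of 21, against 79.4% of all protein-coding genes covered at both times. In myotubes this was so for 10 of 21 (67.9% of all genes) and in reserve cells for 16 of 19 (93.8%). In reserve cells the only genes not lower were Hoxa9, Hoxc9 and Hoxc10, whose windows were covered in full in both libraries. At day 1 Hoxa7, Hoxa9, Hoxc9, Hoxc10 and Hoxc11 were likewise covered in full at both times. The domains reach past such windows, so a loss at a domain edge is not seen there, and these shares are not compared on equal terms. A change of at least 2-fold was seen for Hoxb3, with 1569 bases at day 1 against 3140 at day 0, just past the limit. Of all genes, 1.4% were as much lower and 0.505% higher. The day 1 bases were all in the Hoxb4 peaks. Day 0 had in addition a weak peak of 1360 bp (fold 4.16, pileup 12) that day 1 lacked. A change of at least 2-fold was also seen around Hoxa5, with 1944 bases in myotubes against 848 in reserve cells. Of all genes, 7.0% were as much higher and 1.18% lower. These bases all belong to the peaks at the start of Hoxa6, and Hoxa5 had no peak within 1 kb of its own start in either library. No Hox gene covered at both times differed 2-fold in myotubes or in reserve cells from day 0, where 3.02% and 0.38% of all genes were higher and 4.44% and 4.92% lower. Hoxa7, Hoxa10 and Hoxc11 were the 3 of 19 with fewer covered bases in myotubes than in reserve cells, and 24.4% of all genes were. For Hoxa10 these were 11982 and 12615 bases, and for Hoxc11 8868 and 9678. All 3 lie in the broad domains, whose widest gaps were 1218 bp (HoxA) and 950 bp (HoxC) in myotubes, against 616 and 407 bp in reserve cells. The widest gaps need not lie near each of these genes. Those of HoxC lay more than 5 kb from the start of Hoxc11, whose window held a gap of 323 bp in reserve cells. In myotubes its gaps included 1 of 447 bp.

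In the full lists, MBD2 peaks lay in the Hox clusters at day 0 and in no later library. At a start it lay at 5 of 39 genes at day 0 (Hoxa10, Hoxc8, Hoxc10 and Hoxc13 among them), against 11.1% of protein-coding genes. In day 1 cells, myotubes and reserve cells it lay at 0 of 39, against 0.998%, 0.62% and 0.251% of all genes. With 111 peaks kept in each MBD2 list, as many as the shortest holds, day 0 had 0 Hox starts and 0 peaks in the clusters. Only 111 of the 14948 day 0 peaks were then kept, and the list of that length in reserve cells reached 0.251% of all genes. A count of 0 of 39 is then likely for any library, so this setting cannot show whether the libraries differ. At a fold of 4 or more day 0 had 3 starts and 7 peaks, and at −log10 q of 5 or more 1 start and 2 peaks. Of the 17 genes marked by H3K4me3 at day 0, 4 carried MBD2, against 19% of all marked genes. Of the 22 unmarked ones 1 did, Hoxc8, against 0.776% of all unmarked genes. The MBD2 calls also depend on the starts taken. With the comprehensive annotation day 0 had 7 genes, Hoxc5 and Hoxc6 added. With only the 5′ end of each gene record it had 5, with Hoxc5 in place of Hoxa10.

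Across the spans there were 12 MBD2 peaks at day 0, 5 in HoxA, 7 in HoxC and 0 in HoxB and HoxD. This is 43.4 peaks per Mb in HoxA and 55.7 in HoxC, against 5.48 over the chromosomes. Of the 12, 10 (83.3%) overlapped an H3K4me3 peak of day 0, against 36.3% of all 14948 MBD2 peaks. The exceptions were the peak at Hoxc8 and 1 near the anterior end of HoxC (chr15:103041536-103041751), 7240 bp past the downstream start of Hoxc4. Of the 10 overlaps, 1 was of only 28 bp in a peak of 305 bp (chr15:102934570-102934874). H3K4me3 peaks covered 23.0% of the 4 spans together and 1.51% of the chromosomes at day 0. In HoxA and HoxC, which held all 12 peaks, they covered 45.5% and 52.2%. The densities per Mb thus compare regions of unlike H3K4me3 coverage. There were 10 overlapping peaks for 122153 covered bases in the clusters, and 5419 for 41047725 on the chromosomes. Per covered base the clusters held fewer such peaks than the chromosomes did.

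All 12 MBD2 peaks rested on few fragments, with summit pileups from 4 to 11, where the median of the list was 8. The highest was a HoxA peak (chr6:52161040-52161440, 401 bp, fold 8.61), with 11 fragments and an exact Poisson 95% interval of 5.49 to 19.7 that covers counting error only. It overlaps an exon of the long noncoding RNA Hotairm1 (chr6:52161239-52161507, plus strand). Hoxc10 had 8 fragments (3.45 to 15.8) and a fold of 6.62 with its summit 40 bp upstream of the start, and Hoxc13 had 6 (2.20 to 13.1) and a fold of 5.15. At Hoxa10 a pair of peaks had folds of 3.67 and 3.66, and 1 of them overlaps the promoter printed above. Hoxc8 had 4 fragments (1.09 to 10.2) and a fold of 3.59. The median fold of the 12 was 4.69, against 5.88 in the whole list, and these intervals overlap one another.

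The MBD2 peaks differed widely in CpG. The 205-bp peak at Hoxa10 held 8.78 CpG per 100 bases, and the one at Hoxc8 held 7.73. The strongest peak held 2.99 and the lowest 0.813, in a peak of 369 bp inside HoxC. Across the spans HoxA held 28.9 CpG per kb, HoxB 20.5, HoxC 21.0 and HoxD 27.0. HoxA had 38.6 per kb in the bases marked by H3K4me3 in any library and 20.3 elsewhere, and HoxC 24.9 and 16.4. HoxD, with no mark outside 1 narrow peak, held more CpG per kb than HoxC.

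The clusters also hold 10 long noncoding RNA genes with symbols that begin with Hot, Hox or Hag, and 6 microRNA genes. Of the 10, 3 were marked in each of the 4 libraries, against 20.7%, 20%, 22% and 18.8% of all long noncoding genes of the same types. Hotairm1, which has been studied in myeloid cells, was 1 of them. Hoxa11os, antisense to Hoxa11, lay in the Hoxa11 peak. Hotair, which is known for acting on HoxD in human cells, had its start in the 42837-bp HoxC domain at day 0 and later in peaks of 7505 bp (myotubes) and 7196 bp (reserve cells). Hottip, at the posterior end of HoxA, missed the 1 kb limit narrowly, with the nearest peak 1035, 1094, 1329 and 1283 bp away. Hoxb5os, Hoxb3os, Hoxd3os1, Haglr, Hoxaas2 and Hoxaas3 were unmarked in every library.

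The microRNAs of the clusters fall into families that several clusters share, and many of their known targets are Hox messages. Mature sequences are from RefSeq, 5′ to 3′, with the seed (bases 2 to 8), which pairs with targets, in capitals. The miR-196 copies share a seed and lay in clusters that differed in the mark. The miR-10 copies share a seed and lay in HoxB and HoxD, both nearly unmarked. The seed of miR-615 is shared with none of the others.
miR-196a-5p: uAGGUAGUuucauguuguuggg
miR-196b-5p: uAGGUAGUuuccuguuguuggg
miR-10a-5p: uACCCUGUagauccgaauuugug
miR-10b-5p: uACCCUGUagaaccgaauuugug
miR-615-5p: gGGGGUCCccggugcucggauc

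miR-196b and miR-196a share a seed and differ by C12A, counted from the 5′ end of miR-196b, and miR-10b and miR-10a differ by A12U. Mir196b, upstream of the starts of Hoxa9, and Mir196a-2, between Hoxc10 and Hoxc9, lay inside the broad domains in all 4 libraries. Mir196a-1, in HoxB, gives the same mature miR-196a-5p and was unmarked, with the nearest peak 38538, 46171, 53447 and 140350 bp away. Mir10a, upstream of Hoxb4, was 1096, 985, 1446 and 192351 bp from a peak and so counted as marked at day 1, where it lay just inside the 1 kb limit. Mir10b, in HoxD, had no peak within 27427 bp in any library, and Mir615, inside Hoxc5, none within 7712 bp. In all 2, 3, 2 and 2 of the 6 microRNA genes were marked, against 14.1%, 13.8%, 14.9% and 12.1% of all microRNA genes.

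H3K4me3 also lay at the genes whose products act with or on Hox proteins. It lay in all 4 libraries, as at 53.6% of all protein-coding genes, at 9 of 9 genes for Hox cofactors of the PBX, MEIS and PKNOX families, which bind DNA together with Hox proteins. The same held for 13 of 13 Trithorax genes and 25 of 25 Polycomb genes. At day 0, when MBD2 lay at 11.1% of all protein-coding genes and 19% of those marked by H3K4me3, it lay at 2 of the 9 cofactor genes (Pbx3, fold 5.88, among them) and at 2 of the 13 Trithorax genes (Men1, fold 8.59, and Cxxc1, fold 5.88). It lay at 7 of the 25 Polycomb genes (Jarid2, Cbx2, Cbx8, Pcgf5, Kdm2b and Phc2 among them), with a fold of 7.89 at Jarid2, and at none of these lists in the later libraries. The H3K4me3 peak of Meis2 measured 9895, 8315, 6857 and 6907 bp and that of Meis1 8143, 8133, 7789 and 7665 bp.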

How the data were processed

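Reads were handled with Trim Galore, Bowtie2, SAMtools and MACS2 on mm10, per the submitters' processing notes. For these tools no version or setting is stated in the sources used here, nor whether the IgG libraries were the control. There is 1 deposited list per library. Its pileup is a signal, the fragments over the summit, and its fold enrichment is a ratio of pileup to local background, per the file headers. The −log10 of the p-value and that of the q-value stand in deposited columns with damaged names, and were told apart by column order. All of these are the authors' values, used to describe peaks or to rank and filter them in 1 list at a time.

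The peaks of chromosomes 1 to 19, X and Y entered the counts. They were set against transcript starts of the GENCODE M21 basic annotation (at least 1 bp within 1 kb), against windows of 5 kb around all basic starts of a gene, joined where they overlap, and against cluster spans from first to last gene with 5 kb beyond. Peaks are called per library, so a gene counts as gained or lost when its call differs, and a peak edge crossing 1 kb counts as a change. The local background is the pileup plus 1, divided by the fold enrichment, less 1. Pileup intervals are exact Poisson intervals at 95% and cover counting error only, since copies made by PCR are not independent molecules. Distances and overlaps were computed with Python 3.11.15, pandas 2.3.3 and NumPy 2.4.6, and the interval code was checked against a base-by-base count on 4000 simulated queries. Sequences came from RefSeq tables and the GRCm38.p6 genome. All 39 members enter the counts, and the values of a few genes are not reported here.

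The members and gene lists were chosen with earlier results of these data known. No p-values were computed, since each group has 1 library. In the titles, D5MT was taken to mean day 5 myotubes and D5RC day 5 reserve cells, after the series' description. The IgG libraries were not used here.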

Additional observations from a re-analysis of the deposited data

How the results depend on the processing

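Values were recomputed under 9 other settings and 2 chosen after seeing the data (all transcripts of the comprehensive annotation, and start codons). Of 208 values for 32 results, 178 stayed within 1.5 times the reported value and 30 moved further. The 178 include many results of 0 that stayed 0, such as MBD2 starts in the later libraries and covered bases of HoxD at day 0. Settings that keep fewer peaks could not raise these, so the 178 overstate how stable the results are. With the peak summit required inside the 1 kb window, the Hox genes marked by H3K4me3 were 8 at day 0, 9 at day 1 and 11 in myotubes. Hox genes that gained or lost H3K4me3 then numbered 3 for day 1 over day 0. They numbered 7 for reserve cells over day 0 (6 gains, 1 loss) and 8 for myotubes over reserve cells (3 gains, 5 losses). The genes of those 6 gains and 5 losses had a start inside a peak in both libraries compared. With equal numbers of peaks (15920 for H3K4me3, 111 for MBD2) gains and losses numbered 0 for day 1 over day 0. They numbered 1 for myotubes over day 0, 1 for reserve cells over day 0 and 0 for myotubes over reserve cells. HoxB then had 0 covered bases in myotubes and 1845 at day 0, HoxD had 0 in myotubes, and MBD2 had 0 starts and 0 peaks in the clusters at day 0. With a fold enrichment of 4 or more, gains and losses numbered 0 for day 1 over day 0, 2 for myotubes over day 0 and 1 for reserve cells over day 0, and MBD2 had 3 starts and 7 peaks at day 0. With −log10 q of 5 or more they numbered 0 for day 1 over day 0, 1 for myotubes over day 0, 1 for reserve cells over day 0 and 2 for myotubes over reserve cells. HoxB then had 2449 covered bases at day 0 and HoxD 0 in myotubes, and MBD2 had 1 start (Hoxc10) and 2 peaks at day 0. Windows of 2 kb and the comprehensive annotation each gave 2 for day 1 over day 0. The causes were not tested. No paired analysis was possible because each group has 1 library and the labels carry no replicate numbers.

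Values at HoxB, HoxD and all MBD2 peaks rest on summit pileups of at most 19 fragments, so single calls there are near the detection limit of the lists. Read totals are unknown, so a peak missing from a list is not shown to be absent from the cells, and the part of depth in missing calls was not tested.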

Other observations

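Genes outside the 4 clusters but near them in descent or position had a mark of their own pattern. Of 6 ParaHox genes, the relatives of the Hox genes that act in gut and brain, Gsx1 had H3K4me3 at a start at day 0 (1803 bp, fold 7.69), at day 1 (1669 bp, fold 7.47) and in myotubes (362 bp, fold 2.98), and not in reserve cells. Cdx1, Cdx2, Cdx4, Gsx2 and Pdx1 had none in any library. Of 9 genes next to the clusters, Skap2, Hibadh, Smug1, Lnpk and Mtx2 were marked in all 4 libraries. Evx1 and Evx2, homeobox genes beside HoxA and HoxD, were marked in none, and neither were Skap1 and Ttll6 beside HoxB. Lnpk and Mtx2 flank HoxD, so the unmarked span lay between marked genes. MBD2 lay at Skap2 at day 0 (fold 5.15) and at no other of the 9.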
